A study of Mus musculus with 10 samples.

Results

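Polycomb proteins keep genes silent in multiprotein complexes that modify histones. Polycomb repressive complex 2 (PRC2) methylates histone H3, giving the H3K27 mark, and Polycomb repressive complex 1 (PRC1) ubiquitinates histone H2A, giving the H2AK119 mark. ASXL proteins, among them ASXL2, are partners of the deubiquitinase BAP1, which removes the PRC1 mark, and ASXL1 has been linked to PRC2 in blood cells. The 34 genes described here encode subunits of PRC1 and PRC2 and related Polycomb proteins, such as Sfmbt1, and were chosen by gene symbol. They were chosen with earlier results of these data known, so the list was not blind to the data. All 34 were found among the 47311 genes of the deposited tables.

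The study measured polyA RNA by sequencing in mouse Lin-Kit+ bone marrow cells, which lack lineage markers and carry the stem cell factor receptor KIT. The cells over-expressed 1 of 3 mutant forms of ASXL2 (mutant1, mutant2 and mutant3) or full-length (WT) ASXL2, or carried an empty vector (EV), with 2 libraries for each of the 5 groups. All were kept in culture with IL3, IL6 and SCF, and GFP+ cells were sorted and expanded before RNA extraction. The labels give no strain, age or number of animals, do not say what the 3 mutations are, and do not name the source of each library. P-values therefore rest on library-to-library spread alone, which could be purely technical if 1 culture gave both libraries of a group.

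Every library belongs to batch 2 or batch 1 by its deposited name. Of the 6 mutant libraries, 4 carry another mutant number in the deposited name than in the label, and 2 also another batch. The 6 mutant libraries were therefore pooled and single mutants were not compared. With the batches of the names, each batch holds 3 mutant, 1 full-length and 1 EV library. Library totals were 52422686 to 79320702 estimated counts. Asxl2 itself stood at 374 to 1050 TPM (transcript abundance corrected for length and scaled to the same total in each library) in the mutants, with a median of 505, at 514 and 709 TPM with full-length ASXL2 and at 28.7 and 30.1 TPM with EV. Kit stood at 729 to 1050 TPM over the 3 classes, while mast cell transcripts were far higher, with Cpa3, a mast cell carboxypeptidase, at 19385 to 27096 TPM. Of other lineages some defining genes were near 0, with 0.165 TPM of Elane (neutrophil), 0.0998 TPM of Csf1r (macrophage) and 0.0207 TPM of Cd3e (T cell) in the highest library, but their marker lists as a whole were not. Mean levels reached 1 TPM for 2 of 12 neutrophil, 5 of 12 monocyte and macrophage, 4 of 10 erythroid, 5 of 9 megakaryocyte and 1 of 12 lymphoid genes.

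In the mutants, 8 of the 34 genes differed from EV, and all 8 encode parts of PRC1 or proteins that join it. Cbx2, Cbx6 and Cbx7, Pcgf5, Rybp, Kdm2b and Scmh1 rose by 1.17 to 1.73-fold, and Phc1 fell to 0.788 of EV. With full-length ASXL2, Cbx2, Cbx6 and Kdm2b rose by 1.19 to 1.58-fold and no member fell (1, L3mbtl2, was lower at an unadjusted p under 0.05, and DESeq2 called none lower). None of the 12 PRC2 genes passed the test in either comparison, with 3 at an unadjusted p under 0.05 in the mutants and 0 with full-length ASXL2. That depends on the libraries and on the test. Without the second EV library the log2 fold changes of Rbbp7, Ezh1 and Phf1 in the mutants went from -0.18, 0.07 and 0.25 to -0.36, 0.21 and 0.40. Phf1 also passed in the mutants with DESeq2 on all libraries (adjusted p = 0.0378). It passed with edgeR without mutant2 replicate 2 (adjusted p = 0.0401). No member differed between mutants and full-length ASXL2. A gene is called here when the adjusted p of edgeR's quasi-likelihood test, with the batch as a term and Benjamini-Hochberg adjustment over 17810 genes, is under 0.05.

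Read against all genes, the share of members that passed was 23.5% in the mutants, where 10.8% of all genes passed against EV (6.82% higher and 3.99% lower). With full-length ASXL2 it was 8.82%, or 3 genes, where 5.07% of all genes passed (3.85% higher and 1.22% lower). The median log2 fold change over the 34 members was 0.01 in the mutants and 0.02 with full-length ASXL2, beside medians of -0.01 and -0.02 over all genes tested. Both comparisons use the same 2 EV libraries and are therefore not independent of each other.

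**Figure D1:**
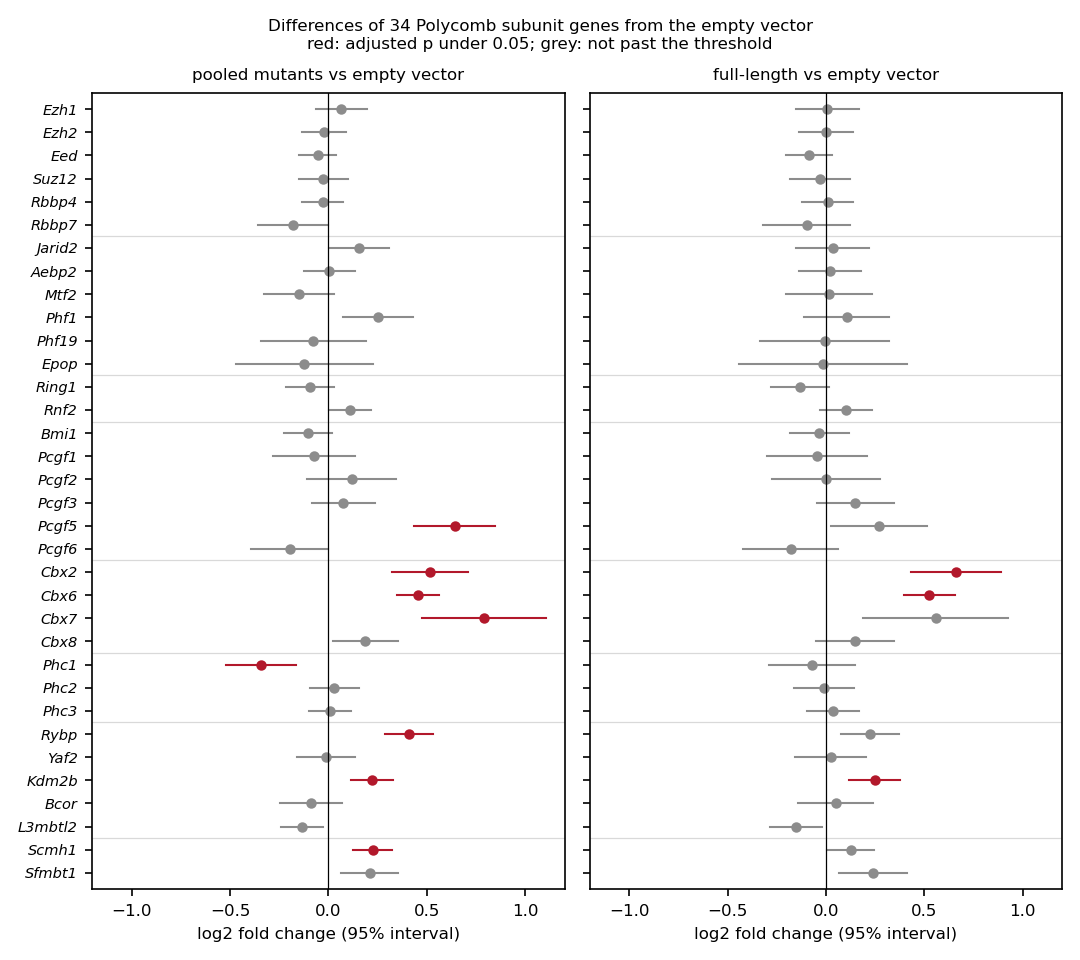
Log2 fold change of each of the 34 genes with its 95% confidence interval (horizontal bar), in the pooled mutants against EV (left, 6 and 2 libraries) and with full-length ASXL2 against EV (right, 2 and 2 libraries). Red points passed the test (8 on the left, 3 on the right). The PRC2 genes in the upper 12 rows lie near 0, and the red points lie in the PCGF, CBX, PHC, variant PRC1 and SCM rows.

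Promoters of 4 genes that rose in the mutants are shown so that the sequence before a transcript start of each can be read beside its values. The Scmh1 stretch lies directly before the annotated gene. Those of Pcgf5, Cbx7 and Kdm2b lie inside the annotated gene, before an internal transcript start. They come from RefSeq's table for mm10, in which 29 of the 34 members had an entry, and are cut to the longest stretch of the 250 bases before the start that lies in no annotated exon. Capitals mark GGGCGG (the GC box bound by Sp1-type factors), CCAAT, and TGTGGT (the RUNX core), each on either strand, and neighbouring GC boxes may overlap. The Pcgf5 stretch is chr19:36409498-36409747 on the plus strand, that of Cbx7 is chr15:79932769-79932896 on the minus strand, that of Kdm2b is chr5:122900356-122900600 on the minus strand, and that of Scmh1 is chr4:120405098-120405280 on the plus strand.
Pcgf5: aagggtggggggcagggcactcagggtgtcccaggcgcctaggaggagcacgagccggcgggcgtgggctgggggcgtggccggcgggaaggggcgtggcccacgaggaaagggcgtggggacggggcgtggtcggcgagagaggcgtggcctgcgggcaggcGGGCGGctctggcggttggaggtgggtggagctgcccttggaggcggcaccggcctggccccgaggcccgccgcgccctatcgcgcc
Cbx7: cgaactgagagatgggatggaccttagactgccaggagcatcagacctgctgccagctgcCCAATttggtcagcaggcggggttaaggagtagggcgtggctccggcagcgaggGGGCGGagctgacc
Kdm2b: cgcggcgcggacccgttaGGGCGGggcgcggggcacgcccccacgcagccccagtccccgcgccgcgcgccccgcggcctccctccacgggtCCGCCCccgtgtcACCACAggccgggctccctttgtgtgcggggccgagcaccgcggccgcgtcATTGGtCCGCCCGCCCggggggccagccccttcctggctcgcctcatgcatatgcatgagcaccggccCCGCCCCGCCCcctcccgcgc
Scmh1: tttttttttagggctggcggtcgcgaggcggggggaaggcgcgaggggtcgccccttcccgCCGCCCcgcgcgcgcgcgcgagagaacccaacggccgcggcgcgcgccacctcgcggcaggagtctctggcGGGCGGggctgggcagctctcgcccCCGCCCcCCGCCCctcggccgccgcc

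The Kdm2b stretch held 6 GC boxes, that of Scmh1 4, and those of Pcgf5 and Cbx7 1 each. Over the whole 250 bases, 21 of the 29 matched members (72.4%) had a GC box, beside 32.7% of all 32851 promoters of the same length in the table. The E-box CACGTG was in 7 of the 29 (24.1%), beside 6.02% of all promoters. CCAAT was in 7 (24.1%, beside 33.8%), the ETS core CCGGAA in 3 (10.3%, beside 12.0%), TGTGGT in 5 (17.2%, beside 14.0%) and the GATA letters AGATAA in none (beside 9.99%). The members' promoters had a median of 22 CpG dinucleotides and the table as a whole a median of 6. Each window is the nearest entry to the start of the gene's most abundant coding transcript, 3354 bases away for Bmi1 and 836 for Aebp2. For Eed, Cbx6 and Phc1 all 250 bases lay in annotated exons. The transcript used held 27.9% of the TPM of Cbx7, 37.9% of that of Scmh1, 44.3% of that of Kdm2b and 96.0% of that of Pcgf5. The promoters of the whole table were not limited to genes expressed here. A match of letters shows neither binding nor control.

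All 34 members were transcribed: each reached at least 1 TPM in all 10 libraries, and all passed the filter on low counts. Mean levels over the 10 libraries ran from 3.58 TPM for Cbx2 to 93.1 TPM for Rbbp4, and 27 members averaged at least 10 TPM. The histone-binding subunits Rbbp4 (80.6 to 117 TPM) and Rbbp7 (65.7 to 95.3 TPM), which also serve in other chromatin complexes, headed the order, and their ranges overlapped. Next came Ezh2 (40.7 to 56.4 TPM), Eed (38.4 to 54.0 TPM) and Phc2 (40.1 to 47.4 TPM), whose ranges also overlapped. The lowest 4 were Pcgf6, Pcgf3, Sfmbt1 and Cbx2, at means of 6.09, 5.91, 5.66 and 3.58 TPM, and among these only Cbx2 (2.64 to 4.16 TPM) lay below all libraries of the others.

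**Figure D2:**
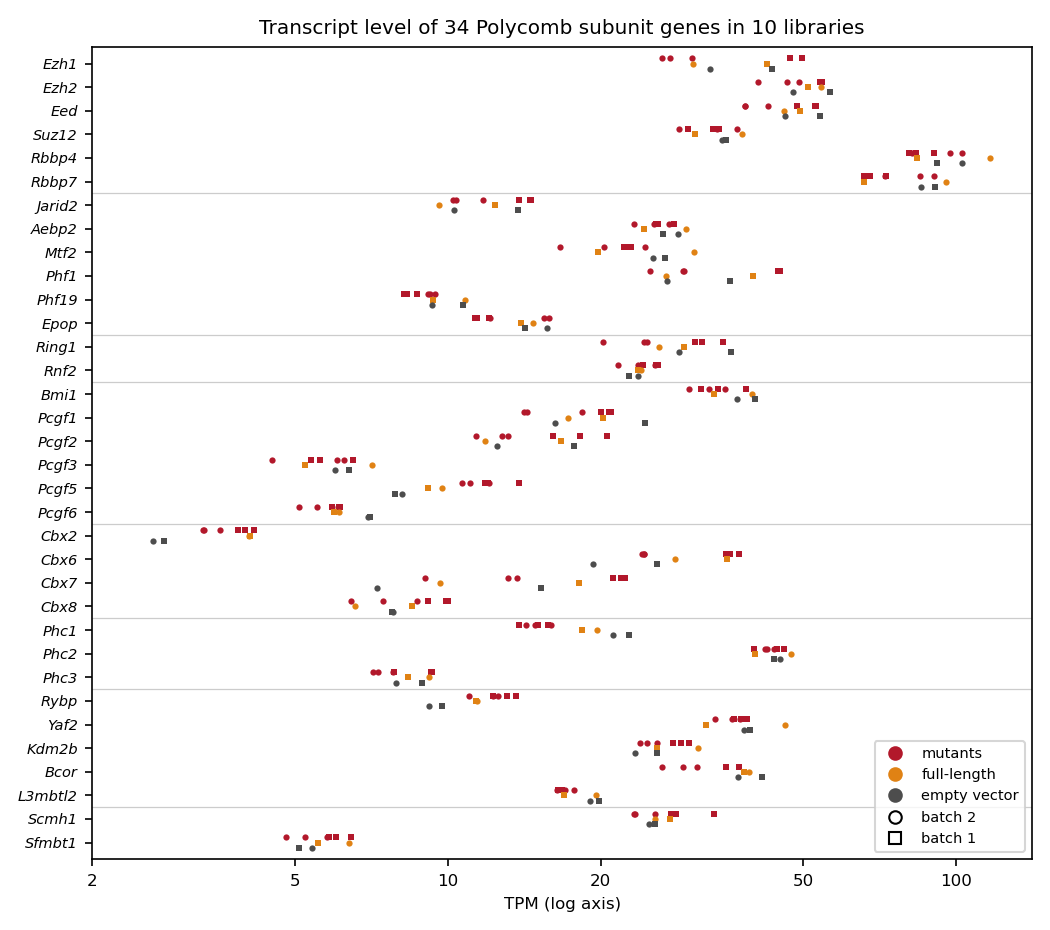
Level of each member in TPM (log axis) in the 10 libraries, with mutants in red, full-length ASXL2 in orange and EV in grey, circles for batch 2 and squares for batch 1. Lines separate the 8 classes of subunit. Levels run from 2.64 TPM (Cbx2) to 117 TPM (Rbbp4), and the Cbx7 points spread the most, 3.07-fold from lowest to highest library.

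The PRC2 core consists of a methyltransferase (EZH2 or EZH1), EED, which reads the mark, SUZ12, the scaffold, and RBBP4 or RBBP7. Ezh2 had 66.6, 64.5 and 68.0 TMM-scaled CPM (counts per library size, scaled by edgeR's trimmed mean of M-values and not corrected for transcript length) in the batch 2 mutants and 63.1, 61.1 and 65.5 CPM in the batch 1 mutants. Full-length ASXL2 gave 69.1 CPM in batch 2 and 62.7 CPM in batch 1, and EV gave 64.2 CPM in batch 2 and 67.4 CPM in batch 1. The classes overlapped, with a log2 fold change of -0.02 in the mutants (95% interval -0.13 to 0.09). Over the 6 core genes the intervals of the mutants reached from -0.36 to 0.20 and those of full-length ASXL2 from -0.32 to 0.17, so that a change in a core gene beyond 0.779 to 1.15-fold of EV in the mutants lay outside all 6 intervals. A p that misses the threshold does not show that these genes were equal.

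Rbbp7 had the lowest log2 fold change among the core genes in the mutants, -0.18 ± 0.08 (SE), with an adjusted p of 0.192. Without EV replicate 2 it passed at -0.36 (adjusted p = 0.0132), and Ezh1 passed at 0.21 (adjusted p = 0.0484). Within batches its difference between mutants and EV was 0.03 in batch 2 and -0.38 in batch 1. Ezh1 also changed sign, with -0.06 in batch 2 and 0.20 in batch 1. Neither gene's difference between batches passed an interaction test over all genes in the mutants, with adjusted p-values of 0.203 for Rbbp7 and 0.356 for Ezh1.

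The 6 PRC2 accessory genes encode proteins that direct or tune the core: Phf1, Mtf2 and Phf19 are the Polycomb-like proteins that bind CpG-rich DNA and methylated histone, Jarid2 and Aebp2 define one form of PRC2, and Epop another. None passed the test in either comparison by edgeR, while DESeq2 called Phf1 in the mutants (adjusted p = 0.0378). Phf1 came nearest in the mutants, with 50.2, 60.6 and 54.8 CPM in batch 2 and 73.1, 75.8 and 77.0 CPM in batch 1, while full-length ASXL2 gave 46.7 CPM in batch 2 and 72.4 CPM in batch 1 and EV 49.9 CPM in batch 2 and 58.4 CPM in batch 1. The log2 fold change in the mutants was 0.25 ± 0.08 (SE), adjusted p = 0.0732, and it passed without EV replicate 2 (0.40, adjusted p = 0.0287) or without mutant2 replicate 2 (0.28, adjusted p = 0.0401). Each batch's 3 mutants lay above that batch's EV library, although the classes overlapped across batches. Phf19 had the smallest interaction p among the members: mutants minus EV was 0.25 in batch 2 and -0.38 in batch 1, and the adjusted p of that difference was 0.136.

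PRC1 is built on a RING ubiquitin ligase, RNF2 (RING1B) or RING1, paired with 1 of 6 PCGF proteins, which define the kind of PRC1. The ligase genes did not pass: the log2 fold change of Rnf2 was 0.11 ± 0.05 (SE) in the mutants (adjusted p = 0.196) and 0.10 ± 0.06 with full-length ASXL2, and that of Ring1 was -0.10 ± 0.06 and -0.13 ± 0.07. Ring1 averaged 28.6 TPM over all libraries and Rnf2 24.1 TPM. Their ranges, 20.2 to 36.1 and 21.6 to 25.9 TPM, overlapped.

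Pcgf5, a PCGF protein of variant PRC1 complexes that lack a CBX protein, rose in the mutants. It had 13.2, 14.1 and 13.9 CPM in the batch 2 mutants and 12.0, 12.2 and 14.7 CPM in the batch 1 mutants, with 10.4 and 10.2 CPM under full-length ASXL2 and 9.25 and 7.91 CPM under EV in batch 2 and batch 1. All 6 mutants lay above both full-length libraries, which lay above both EV libraries. How many of all genes show this order was not counted. Mutants against full-length ASXL2 did not pass edgeR's test for Pcgf5 (adjusted p = 0.124). The log2 fold change was 0.64 ± 0.09 (SE) in the mutants, adjusted p = 0.00186 and 1.56-fold, with 0.57 in batch 2 and 0.70 in batch 1. With full-length ASXL2 it was 0.27 ± 0.11, adjusted p = 0.208.

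The other 5 PCGF genes did not pass in either comparison. Bmi1 (PCGF4), a PCGF of canonical PRC1 needed for blood stem cell renewal, was the highest at a mean of 35.2 TPM, and Pcgf3, the closest relative of Pcgf5, the lowest at 5.91 TPM. Log2 fold changes of Bmi1 were -0.10 ± 0.06 (SE) in the mutants and -0.03 ± 0.07 with full-length ASXL2, and those of Pcgf3 were 0.08 ± 0.07 and 0.15 ± 0.09. In TPM, Pcgf5 made up 11.5 to 14.4% of the 6 PCGF genes in the mutants (median 13.2%), 10.6 and 10.1% with full-length ASXL2 in batch 2 and batch 1, and 9.37 and 7.58% with EV. In these libraries its share did not overlap between the 3 classes, nor did its CPM, and no count over all genes stands beside this. The Pcgf5 gene lies at chr19:36348309-36460970 on the plus strand, and all of its TPM fell on 2 protein-coding transcripts.

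CBX proteins are the chromodomain subunits through which canonical PRC1 binds the PRC2 mark. This was the class with the largest changes: 3 of the 4 genes measured here rose in the mutants and 2 with full-length ASXL2, and all 4 lay above 0 in both comparisons, with a median log2 fold change of 0.49 and 0.54. Cbx2 had 9.23 to 10.8 CPM in the mutants with a median of 10.1, 11.1 CPM in both full-length libraries, and 7.06 and 6.93 CPM with EV in batch 2 and batch 1. No library with ASXL2 overlapped EV. The log2 fold change was 0.52 ± 0.09 (SE) in the mutants, adjusted p = 0.00428, and 0.66 ± 0.10 with full-length ASXL2, adjusted p = 0.00494. Within batches the mutants differed from EV by 0.53 in batch 2 and 0.49 in batch 1, and full-length ASXL2 by 0.64 and 0.67. It was the least abundant of the 34 genes, and 91.5% of its TPM fell on its coding transcript.

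Cbx6, the most abundant CBX gene here, had 93.1, 97.9 and 89.7 CPM in the batch 2 mutants and 109, 109 and 116 CPM in the batch 1 mutants. Full-length ASXL2 gave 97.7 CPM in batch 2 and 117 CPM in batch 1, and EV gave 69.3 CPM in batch 2 and 79.8 CPM in batch 1. The 8 libraries with ASXL2 lay above both EV libraries. The fitted difference was 0.46 ± 0.05 (SE, log2) in the mutants, adjusted p = 0.000326, the smallest among the members, and 0.53 ± 0.06 with full-length ASXL2, adjusted p = 0.000764. The mutants differed by 0.43 in batch 2 and 0.48 in batch 1, and full-length ASXL2 by 0.50 and 0.56.

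Cbx7, a CBX protein of self-renewing stem cells, was the member with the largest log2 fold change in the mutants, 0.79 ± 0.14 (SE) or 1.73-fold, adjusted p = 0.00849. It had 24.5, 34.1 and 29.2 CPM in the batch 2 mutants and 47.6, 57.8 and 56.3 CPM in the batch 1 mutants. Full-length ASXL2 gave 23.1 CPM in batch 2 and 49.1 CPM in batch 1, and EV gave 18.5 CPM in batch 2 and 28.3 CPM in batch 1. Within each batch, all ASXL2 libraries lay above the EV library, but across batches the classes overlapped, with batch 1 higher in every class. The mutants differed from EV by 0.64 in batch 2 and 0.92 in batch 1. Full-length ASXL2 differed by 0.31 in batch 2 and 0.79 in batch 1, with a log2 fold change of 0.56 ± 0.16 that did not pass edgeR's test (adjusted p = 0.0951) but passed DESeq2's, at 0.55 (adjusted p = 0.00695).

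Cbx8 did not pass, at a log2 fold change of 0.19 ± 0.07 (SE) in the mutants (adjusted p = 0.142) and 0.15 ± 0.09 with full-length ASXL2. Its 6 mutant libraries held 10.8 to 12.5 CPM with a median of 11.3, full-length ASXL2 gave 10.5 and 11.7 CPM, and EV gave 9.84 and 10.2 CPM. On average 40.8% of its TPM fell on its coding transcript. The CBX genes lie in 2 neighbouring pairs. Cbx2 (chr11:119022962-119031270, plus strand) and Cbx8 (chr11:119036305-119040969, minus strand) are 5.04 kb apart, and Cbx6 (chr15:79823896-79834688, minus strand) and Cbx7 (chr15:79915807-79971119, minus strand) are 81.1 kb apart. Both genes of the second pair rose in the mutants, and of the first pair only Cbx2 passed.

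**Figure D3:**
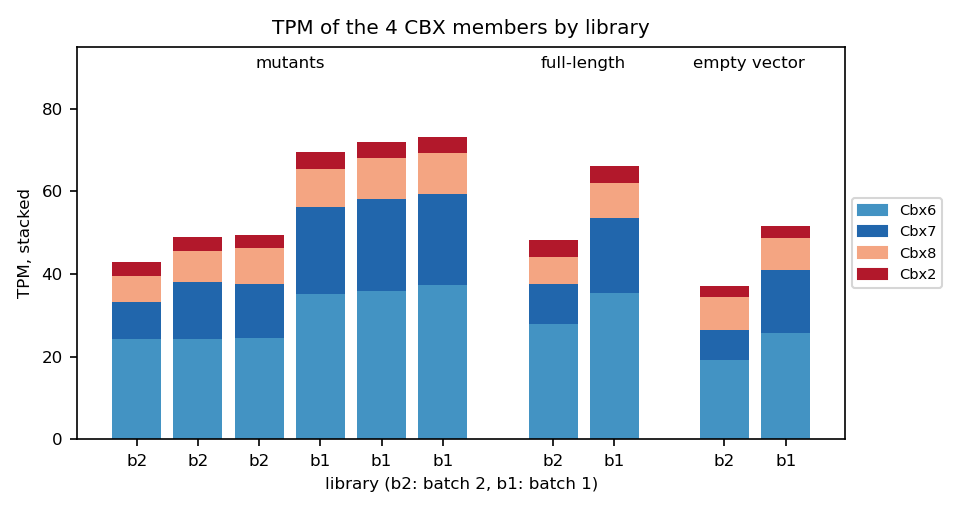
TPM of Cbx6, Cbx7, Cbx8 and Cbx2 stacked for each library, with mutants on the left, full-length ASXL2 in the middle and EV on the right, and batch 2 before batch 1 within each. Cbx6 made up 49.2 to 58.0% of the 4 genes in every library, and within a batch each ASXL2 library stands above the EV library.

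PHC proteins polymerise and cluster canonical PRC1. Phc1 was the only member that fell in the mutants. It had 38.6, 46.3 and 39.2 CPM in the batch 2 mutants and 35.1, 36.0 and 32.8 CPM in the batch 1 mutants, while full-length ASXL2 gave 46.6 CPM in batch 2 and 45.0 CPM in batch 1, and EV gave 48.3 CPM in batch 2 and 47.8 CPM in batch 1. All 6 mutants lay below both EV libraries, and 5 of 6 below both full-length libraries. The log2 fold change in the mutants was -0.34 ± 0.08 (SE), adjusted p = 0.0208, with -0.23 in batch 2 and -0.47 in batch 1. With full-length ASXL2 it was -0.07 ± 0.10, adjusted p = 0.780. Phc1 (chr6:122317731-122340561, minus strand) made up 20.9 to 24.2% of the TPM of the 3 PHC genes in the mutants, 25.7 to 27.5% with full-length ASXL2 and 28.6 to 30.1% with EV. The other PHC genes did not pass: Phc2, the most abundant at a mean of 43.5 TPM, had a log2 fold change of 0.03 ± 0.06 (SE) in the mutants, and Phc3, at a mean of 8.30 TPM, 0.01 ± 0.05.

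Variant PRC1 complexes carry RYBP or YAF2 in place of a CBX protein. Rybp rose in the mutants, where it had 41.4, 41.5 and 42.3 CPM in batch 2 and 37.6, 35.3 and 39.6 CPM in batch 1. Full-length ASXL2 gave 35.2 CPM in batch 2 and 34.3 CPM in batch 1, and EV gave 32.0 CPM in batch 2 and 27.7 CPM in batch 1. The mutants and the full-length libraries lay above both EV libraries, and the log2 fold change was 0.41 ± 0.06 (SE) in the mutants, adjusted p = 0.00125. Full-length ASXL2 gave 0.22 ± 0.07, which did not pass (adjusted p = 0.0838). Its coding transcript alone stood at 10.3 to 11.9 TPM in the mutants, 9.77 and 10.5 TPM with full-length ASXL2 and 8.795 and 8.998 TPM with EV. Its relative Yaf2, more abundant at a mean of 37.6 TPM, did not pass, at -0.01 ± 0.07 in the mutants and 0.02 ± 0.08 with full-length ASXL2. Rybp lies at chr6:100228565-100287485 on the minus strand.

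Kdm2b, whose protein brings a PCGF1 complex to CpG islands through its CXXC domain, rose in both comparisons by a small amount. It had 63.5 to 70.8 CPM in the mutants with a median of 66.0, 67.6 and 67.9 CPM with full-length ASXL2, and 56.8 and 57.3 CPM with EV. All 8 ASXL2 libraries lay above EV. The log2 fold change was 0.22 ± 0.05 (SE) in the mutants, adjusted p = 0.0142, and 0.25 ± 0.06 with full-length ASXL2, adjusted p = 0.0338. Within batches the mutants differed by 0.22 in both, and full-length ASXL2 by 0.25 in batch 2 and 0.24 in batch 1. On coding transcripts alone the classes overlapped: 18.4 to 22.2 TPM in the mutants, 20.4 and 22.3 TPM with full-length ASXL2 and 19.0 and 20.5 TPM with EV. The gene lies at chr5:122870665-122989823 on the minus strand.

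The remaining genes of variant PRC1 did not pass: Bcor, the corepressor of the PCGF1 complex, had -0.09 ± 0.07 (SE) in the mutants and 0.05 ± 0.09 with full-length ASXL2, and L3mbtl2, of the PCGF6 complex, had -0.13 ± 0.05 and -0.15 ± 0.06 with adjusted p-values of 0.107 and 0.193. Scmh1, a relative of fly Sex comb on midleg that joins canonical PRC1, rose in the mutants. It had 42.2 to 45.2 CPM in the mutants with a median of 43.9, 40.4 and 41.5 CPM with full-length ASXL2 and 38.6 and 36.5 CPM with EV, so in CPM no ASXL2 library overlapped EV. In TPM the classes overlapped, at 23.2 to 33.3 in the mutants, 25.5 and 27.4 with full-length ASXL2 and 24.8 and 25.6 with EV. Scmh1 did not pass in the mutants with limma on log2(TPM + 1) or log2(TPM + 0.1). The log2 fold change was 0.23 ± 0.05 (SE) in the mutants, adjusted p = 0.0102, and 0.13 ± 0.05 with full-length ASXL2, adjusted p = 0.240. The Scmh1 gene lies at chr4:120405281-120530186 on the plus strand. Sfmbt1, also a fly-gene relative with MBT repeats, did not pass, at 0.21 ± 0.07 in the mutants (adjusted p = 0.0646) and 0.24 ± 0.08 with full-length ASXL2 (adjusted p = 0.117). It passed in the mutants with a filter of at least 1 CPM in 4 libraries (0.22, adjusted p = 0.0491) and without mutant3 replicate 1 (0.23, adjusted p = 0.0311). EV gave 30.9 CPM in batch 2 and 26.4 CPM in batch 1, and the lowest ASXL2 library, a mutant at 30.9 CPM, was level with the higher of them.

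**Figure D4:**
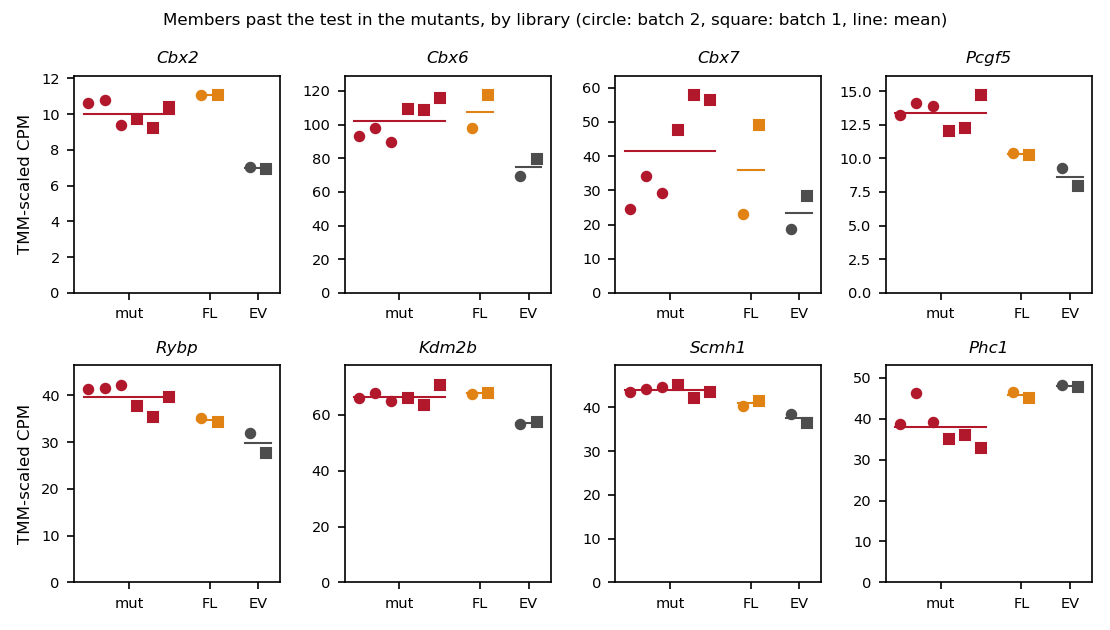
TMM-scaled CPM of the 8 genes that passed in the mutants, by library, with mutants in red, full-length ASXL2 in orange and EV in grey, circles for batch 2, squares for batch 1 and lines for class means; each vertical axis starts at 0. Cbx7 shows the widest gap between batches, and Phc1 is the only panel in which the mutants stand below EV.

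In TMM-scaled CPM, the 8 libraries with ASXL2 all lay above both EV libraries for 8 members (Pcgf5, Cbx2, Cbx6, Cbx8, Rybp, Kdm2b, Scmh1 and, level to the digits printed, Sfmbt1), where 6.91% of all genes did so, and below both for 1 (Phc1), where 4.05% of all genes did so. Cbx7 is not among them, since its EV library of batch 1, at 28.3 CPM, lay above a batch 2 mutant at 24.5 CPM.

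The comparison of mutants with full-length ASXL2 asks whether the mutant forms act unlike the full-length protein. No member passed, and 71 of all genes did (0.399%). At an unadjusted p under 0.05, 4 members remained: Pcgf5 at 0.37 ± 0.09 (SE, adjusted p = 0.124), Phc1 at -0.27 ± 0.08 (adjusted p = 0.195), Rybp at 0.18 ± 0.05 (adjusted p = 0.197) and Scmh1 at 0.10 ± 0.04 (adjusted p = 0.441). DESeq2 called Pcgf5 alone, with an adjusted p of 0.0169. Phc1 passed at -0.33 (adjusted p = 0.0393) without mutant3 replicate 1, whose 46.3 CPM is the highest among the mutants and which is 1 of the 2 libraries with different batches in name and label. For Cbx2 and Cbx6 the intervals of the difference reached from -0.33 to 0.04 and from -0.17 to 0.03. A gene past the threshold in the mutants and short of it with full-length ASXL2, such as Rybp, Pcgf5, Scmh1 or Phc1, is therefore not shown to differ between them.

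Batch 2 against batch 1 is a comparison of the deposited names, not of a treatment, and it changed the members about as often as other genes: 19 of 34 passed (55.9%), where 52.4% of all genes did. Higher in batch 2 were 11 members, where 26.6% of all genes were, and 8 were lower, where 25.9% were. The split depended on the scale: limma on log2(TPM + 1) gave 0 members higher and 11 lower in batch 2 (1139 of all genes higher and 6063 lower), with the median of all genes at -0.11. With the batch of the labels in place of that of the names, 0 members and 0 genes passed edgeR's test, with 1555 genes at an unadjusted p under 0.05. Cbx7 differed the most, with 18.5 to 34.1 CPM in batch 2, median 24.5, against 28.3 to 57.8 CPM in batch 1, median 49.1. In log2 this was -0.87 ± 0.10 (SE), adjusted p = 0.000156. Rbbp4 had the smallest adjusted p, 3.39e-05, at 250 to 275 CPM in batch 2 against 198 to 213 CPM in batch 1 and a log2 fold change of 0.36 ± 0.04. The batches did not overlap for Rbbp4, but did for Cbx7, whose EV library of batch 1 lay among the batch 2 mutants.

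**Figure D5:**
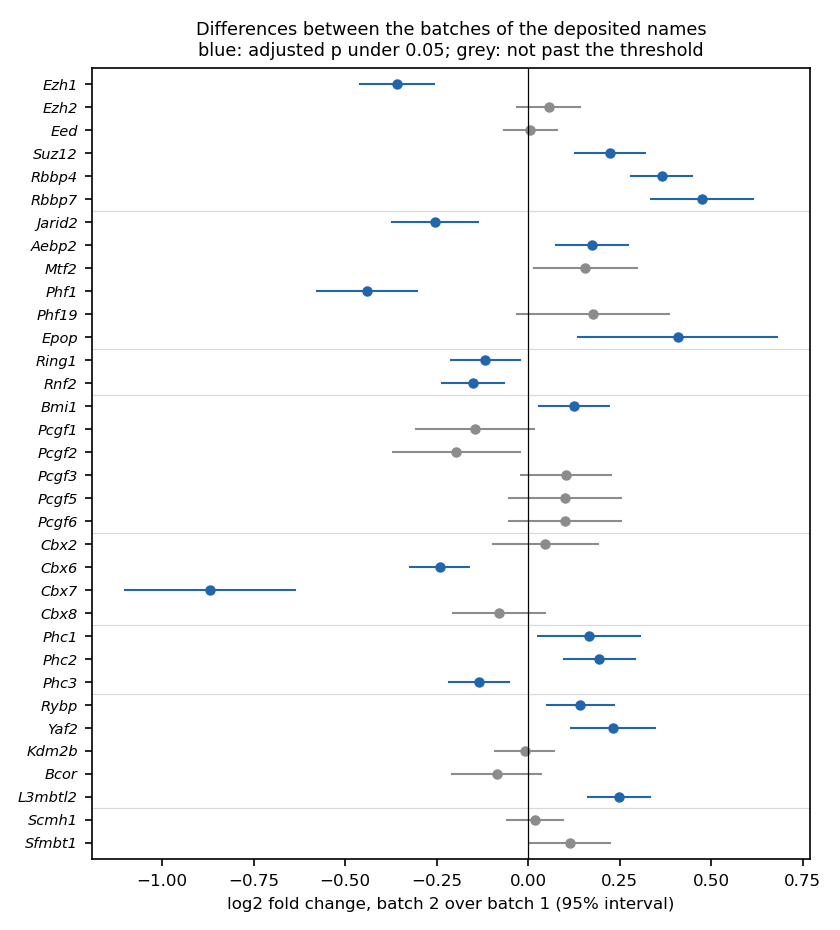
Log2 fold change of each member in batch 2 over batch 1 with its 95% confidence interval, from the model that also holds the 3 classes. Blue points passed the test (19 of 34). Cbx7 lies farthest left at -0.87, and Rbbp7 farthest right at 0.47.

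Among the PRC2 genes, Rbbp7, Rbbp4, Suz12, Aebp2 and Epop were higher in batch 2, with log2 fold changes of 0.17 to 0.47, and Ezh1, Phf1 and Jarid2 lower, at -0.36, -0.44 and -0.25. In TPM, Ezh1 made up 35.9 to 40.7% of Ezh1 plus Ezh2 in the 5 libraries of batch 2 and 43.5 to 47.8% in the 5 of batch 1, with no overlap. Among the PRC1 genes, Cbx6 (-0.24), Rnf2 (-0.15), Phc3 (-0.14) and Ring1 (-0.12) were lower and L3mbtl2 (0.25), Yaf2 (0.23), Phc2 (0.19), Phc1 (0.17), Rybp (0.14) and Bmi1 (0.12) higher. On the log2(TPM + 1) and log2(TPM + 0.1) scales the direction of Rybp and Bmi1 reversed and that of Eed, which did not pass here, too. Genes of DNA replication and mitosis moved with the batch: 16 of 22 S phase genes (median log2 fold change 0.29) and 17 of 18 mitosis genes (0.49) were higher in batch 2. Their part in the differences of the members was not tested.

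Of 27 further Polycomb genes, 26 were tested, and 3 were higher and 0 lower in the mutants (6.82% of all genes were higher and 3.99% lower). Described here are Bcorl1 (0.30 ± 0.08 in log2, SE, adjusted p = 0.0349) and Scml4 (1.58 ± 0.23, adjusted p = 0.00197), the last at 0.423 to 6.02 CPM in the mutants with a median of 2.30, 0.373 and 3.07 CPM with full-length ASXL2 and 0.190 and 1.51 CPM with EV, and -3.27 in log2 between batch 2 and batch 1. The median log2 fold change of the 26 genes was 0.02. Auts2, of a PRC1 complex with PCGF3 or PCGF5, fell with full-length ASXL2 by 1.33 ± 0.22 (SE) in log2, adjusted p = 0.0060, and was 1.69 ± 0.19 higher in the mutants than with full-length ASXL2, adjusted p = 0.00816. It had 5.584 to 9.005 CPM in the mutants with a median of 7.86, 1.95 and 2.69 CPM with full-length ASXL2 and 5.50 and 6.12 CPM with EV. Full-length ASXL2 thus lay below both other classes without overlap.

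Of the ASXL and BAP1 complex list, 1 of 10 tested genes, Asxl2 itself, passed. Asxl1 was at -0.12 ± 0.04 (SE) in the mutants (adjusted p = 0.0951) and -0.03 ± 0.05 with full-length ASXL2, and Bap1 at -0.02 ± 0.05 and -0.07 ± 0.06. Among 7 genes of H3K27 and H2AK119 mark removal, Kdm6b, an H3K27 demethylase, rose in the mutants by 0.42 ± 0.10 (SE, adjusted p = 0.0200). Of 53 Hox and other classical Polycomb targets, 13 had counts enough to test and 2 fell in the mutants: Cdkn2b by 1.38 ± 0.27 in log2 (adjusted p = 0.00937) and Cdkn2a by 0.98 ± 0.25 (adjusted p = 0.0465), both also higher in batch 2 (1.41 and 1.08). Cdkn2a, which encodes the cell cycle inhibitors INK4A and ARF, stood at 6.60 to 24.8 CPM in the mutants, 9.26 and 24.5 CPM with full-length ASXL2 and 19.0 and 31.6 CPM with EV. No gene of this list passed with full-length ASXL2.

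Replication and mitosis genes lay below 0 in the mutants against EV for 22 of 22 S phase genes (median -0.22) and 18 of 18 mitosis genes (median -0.21), with none passing edgeR's test, the only one run on these lists, and with 12 and 1 at an unadjusted p under 0.05. With full-length ASXL2, only 1 of 22 S phase genes (median -0.13) and 1 of 18 mitosis genes (median -0.11) lay above 0. None passed there, and 1 S phase gene had an unadjusted p under 0.05. Of all 17810 genes tested, 8702 lay above 0 in the mutants and 8231 with full-length ASXL2. In TPM the 22 S phase genes summed to 785 to 1011 in the mutants, 845 to 1144 with full-length ASXL2 and 1018 to 1184 with EV. Among the markers of cell types, 3 of 11 tested stem and progenitor genes passed in the mutants (Procr higher by 3.20, Cd34 lower by 0.39, Hlf lower by 1.05 in log2), 1 of 16 mast cell and basophil genes (Hdc, 1.14 higher), 2 of 7 erythroid genes (Epor 0.89 and Klf1 0.84 higher), 2 of 5 lymphoid genes (Il7r 2.01 and Cd79b 1.19 higher), 1 of 8 monocyte and macrophage genes (Ccr2, 1.19 lower), 1 of 4 neutrophil genes (Mmp8, 0.78 lower) and 0 of 7 megakaryocyte genes (1 at an unadjusted p under 0.05). The mast cell and basophil list summed to 62101 to 69382 TPM in the mutants, 62140 to 75595 TPM with full-length ASXL2 and 69270 to 71384 TPM with EV. The monocyte and macrophage list summed to 36.3 to 60.7 TPM in the mutants, 45.7 to 54.6 TPM with full-length ASXL2 and 83.6 to 98.0 TPM with EV, so no library with ASXL2 overlapped EV (not tested as a sum). Neutrophil sums were 6.31 to 404 TPM in the mutants, 28.8 to 298 TPM with full-length ASXL2 and 68.3 to 386 TPM with EV, all of them at least 234 TPM in batch 2 and at most 68.3 TPM in batch 1. Erythroid sums were 29.4 to 59.1, 36.3 to 50.2 and 54.9 to 59.4 TPM in the mutants, with full-length ASXL2 and with EV. In the same order, megakaryocyte sums were 1119 to 1922, 1330 to 1521 and 1287 to 1694 TPM, and lymphoid sums 1.42 to 5.71, 3.02 to 3.91 and 1.32 to 2.86 TPM. Whether these moves had a part in the changes of the members was not tested. In bulk RNA, fewer cells of a type and less RNA per cell cannot be told apart.

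Without the first EV replicate, 3 of the 8 calls of the mutants (Pcgf5, Cbx6 and Rybp) were kept, and without the second EV replicate 10 members passed, among them Rbbp7, Ezh1 and Phf1 of PRC2. Cbx6, Rybp and Pcgf5 were kept in the mutants under each of the 10 single-library removals, and Cbx6 and Cbx2 with full-length ASXL2. Kdm2b was lost with full-length ASXL2 without any 1 of the 4 libraries compared, and in the mutants without either EV library. With no batch term, Pcgf5 and Cbx2 passed in the mutants and Cbx2 with full-length ASXL2. With the batch taken from the labels, Pcgf5, Cbx2 and Cbx6 passed in the mutants and none with full-length ASXL2. In both limma fits on log2 TPM, Cbx2, Kdm2b and Scmh1 were lost in the mutants. Cbx2 and Kdm2b were also lost there with full-length ASXL2. All 8 calls of the mutants and all 3 of full-length ASXL2 had the same sign in both batches. Of all 34 members, 25 had the same sign in the mutants and 18 with full-length ASXL2. The calls come from a fit over these same batches, so their equal signs are not separate support.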

How the data were processed

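PolyA RNA of 10 libraries was measured. Kallisto, DESeq2 and the build mm10 are named, per the submitters' processing notes, with no versions; strand handling is not given in the sources used here. Per the file headers, the authors deposited estimated counts (est_counts) and TPM (length-corrected abundance) for each transcript. Of 115088 transcripts, 114200 matched GENCODE M21 and were summed per gene; these held 99.3 to 99.6% of the counts, and 888 were left out. Totals were 52422686 to 79320702 counts per library.

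Summed counts were rounded and tested with edgeR 4.0.16 (R 4.3.3; filterByExpr with a minimum count of 10, TMM, robust quasi-likelihood fit) on all 10 libraries, with class (mutants, full-length, EV) and name batch as terms, and Benjamini-Hochberg adjustment over 17810 genes at 0.05. Name batch pairs the classes: deviations of the classes from their own means correlated by 0.525 to 0.640, and by 0.335 to 0.525 with the batch of the labels. Replicate numbers of mutants cannot be used for pairing because name and label differ. SE is the log2 fold change over the square root of F. Genes with values were named by rule: members that passed any comparison, the 3 smallest p-values in each, the highest and lowest member of each class, and from other lists at most 5 genes that passed per list and comparison with at least 1 TPM in a class. Members and lists were chosen with earlier results of these data known.

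On simulated counts with 200 changed genes, the test found 44.4% of the 1.5-fold and 66.7% of the 2-fold changes for mutants against EV (17383 genes), 40.3% and 53.0% for full-length ASXL2 against EV (17396 genes), and 49.3% and 63.2% for mutants against full-length ASXL2 (17397 genes). Alternatives were no batch term, label batch, DESeq2 1.42.0, its size factors in edgeR, other filters, limma 3.58.1 on log2(TPM + 1) and log2(TPM + 0.1), only the libraries compared, and each library left out; leaving out the 2 libraries with differing batches was added after seeing the data. Promoter sequences are RefSeq's. Some genes of the other lists are not reported here.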

Additional observations from a re-analysis of the deposited data

Results flagged for a closer look

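Pcgf6, the PCGF protein of a variant PRC1 complex found in germ and embryonic stem cells, had 1 mutant library far from the others: mutant2 replicate 2, of batch 2, held 10.4 TMM-scaled CPM, and the next of the 6 mutant libraries 9.06 CPM. That gap was 0.634 of the range of the group, above Dixon's 95% critical value for 6 samples. This was the only flag among the 34 members, all of which were checked. Chance flags about 1 in 20 groups of values, so a flag among 34 groups is no more than chance gives. The 6 libraries also span 2 batches and 3 mutant forms, which the check does not take into account. Pcgf6 did not pass in either comparison with EV, and the log2 fold change in the mutants was -0.20 ± 0.09 (SE, adjusted p = 0.196), with EV at 11.0 CPM in batch 2 and 9.77 CPM in batch 1.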

How the results depend on the processing

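Counts of genes and members that passed depended on the batch term. With no replicate block, 311 genes and 2 members (Pcgf5 and Cbx2) passed in the mutants against EV, 134 genes and 1 member with full-length ASXL2 against EV, and 0 genes in the mutants against full-length ASXL2 (720 at an unadjusted p under 0.05). With the replicate block by label batch these were 335 genes and 3 members, 129 genes and 0 members, and 1 gene, and batch 2 against batch 1 gave 0 genes and 0 members (1555 genes at an unadjusted p under 0.05). DESeq2 called 1523 genes with full-length ASXL2 against EV, and 491 genes and 1 member in the mutants against full-length ASXL2. With no filter on low counts the mutants differed from full-length ASXL2 in 183 genes. On log2(TPM + 1), limma called 707 genes and 5 members in the mutants against EV, 259 genes and 1 member with full-length ASXL2 against EV, 23 genes in the mutants against full-length ASXL2 and 11 members between batches. On log2(TPM + 0.1) these were 829 and 5, 321 and 1, 17, and 12. In both TPM fits, batch 2 against batch 1 reversed for Eed (-0.28 and -0.29), Bmi1 (-0.030 and -0.031) and Rybp (-0.084 and -0.090), while the median of all genes moved to -0.11 and -0.20, and 1139 genes higher stood against 6063 lower on log2(TPM + 1), where the count model gave 4731 and 4607. The cause was not tested. Fitting only the libraries compared gave 427 genes and 1 member (Cbx6) with full-length ASXL2 against EV. Without the 2 libraries whose name and label give different batches, 136 genes and 1 member (Phc1, -0.34, adjusted p = 0.0472) differed between mutants and full-length ASXL2. Leaving out 1 library at a time gave 494 to 2042 genes and 3 to 10 members in the mutants against EV, 285 to 1047 genes and 2 to 3 members with full-length ASXL2 against EV, 2 to 111 genes and 0 to 1 member in the mutants against full-length ASXL2, and 8160 to 9105 genes and 17 to 23 members between batches. Where an arm keeps 1 library, it is assumed to vary like the others. Without EV replicate 1 there were 494 genes in the mutants against EV and 384 with full-length ASXL2, for which 465 and 285 passed without full-length replicates 1 and 2; the 2 genes in the mutants against full-length ASXL2 came without full-length replicate 2. With 44.4% of simulated 1.5-fold changes found in the mutants against EV, changes of that size can be missed in the simulated gene set as a whole. That rate was not worked out for the members alone, so it does not give the share of changes missed among them. In the mutants against EV, the SE of the members ran from 0.04 (Eed) to 0.15 (Epop) in log2. Kdm2b and Scmh1 passed there at log2 fold changes of 0.22 and 0.23.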
